A study of Mus musculus with 12 samples.

Results

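The 43 genes described here encode the machinery that copies DNA in S phase and the factors that start it. They were taken as a named list: 6 subunits of the MCM helicase, 4 genes that license origins, 6 that activate the helicase, 6 for the sliding clamp and its loader, 6 for the polymerases and primase, 5 for single-strand binding and Okazaki fragment processing, 3 for nucleotide supply, 3 for copying chromatin and 4 E2F and cyclin E genes. All 43 matched 1 gene each among the 46078 in the count table, and all 43 were among the 18252 genes with enough counts to test. In mouse mammary tumours treated with MBQ-167, paclitaxel or both, none of the 43 passed the test against vehicle at an adjusted p under 0.05. Of all genes tested, 0.0931%, 5.66% and 1.84% passed in these comparisons. Their median log2 fold changes against vehicle were -0.09, -0.09 and -0.07 for the 3 treatments. The 95% interval of the change lay within 2-fold either way for 42, 41 and 42 of the 43 genes. The share of all genes tested with such an interval was 63.5%, 60.1% and 61.7%.

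To raise the tumours, 300000 cells of 4T1 were placed in fat pad number 4 of BALB/c mice, with the genotype labelled WT. This mammary carcinoma line, which spreads to the lung, came from a BALB/c mouse and carried firefly luciferase. The 4 groups of 3 libraries were vehicle, MBQ-167 (100 mg/kg, 5 times a week), paclitaxel (5 mg/kg, 1 dose a week) and the combination of both schedules, from day 14 for 2 weeks, with the mice killed on day 28. MBQ-167 blocks Rac and Cdc42, small GTPases of the cytoskeleton, while paclitaxel binds and stabilises microtubules. All groups come from 1 cell line, and each library is bulk polyA RNA of a tumour with its host cells, so fewer cells in S phase and less of an mRNA per cell cannot be told apart. The libraries of each group are labelled as biological replicates, but the mouse behind each is not given, so p-values measure the spread between libraries. There were 2 injection occasions, and the labels do not give that of each library. An effect of occasion therefore cannot be told apart from one of treatment. The ages of the mice were not given in the sources used here.

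Each origin of replication is licensed in G1, when the origin recognition complex, Cdc6 and Cdt1 load the ring-shaped MCM complex onto DNA. At the start of S phase, Cdc45 and the GINS complex join MCM to form the active helicase, primase and polymerase alpha lay down primers, and the clamp PCNA, set in place by replication factor C, holds the polymerases that extend them. Many of these genes are transcribed together late in G1 by E2F factors, which cyclin E and its kinase help to free from the retinoblastoma protein, and in growing tumours their mRNAs are commonly read as a measure of cycling cells.

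The promoters show a shared sequence feature that the list itself did not use. RefSeq windows of 300 bases on GRCm38.p6, from 250 before to 50 after an annotated start, were found for 35 of the 43 genes, with no entry for Mcm4, Gins1, Gins2, Gins4, Rfc2, Pole, Prim2 and Ccne2. The letters TTTCCCGC, TTTGGCGC, TTTCGCGC or TTTGCCGC, common forms of the E2F motif, were searched on both strands. They were present for 14 of the 35 genes (40.0%), against 704 of 27025 genes with a window (2.6%). The letters CCAAT, the motif of the factor NF-Y, were present on either strand for 23 of the 35 (65.7%) and for 41.1% of all genes, and 10 of the 14 genes with E2F letters had both. A match describes the letters only and is not a measured binding site. The windows of 30 bases around E2F letters are printed for 10 of the 14 genes, which cover the helicase, licensing, its activation, the clamp loader, the polymerases, chromatin copying and the E2f2 gene itself, with 1 match in capitals in each, and read 5′ to 3′ on the strand of its gene.
Mcm5 (chr8:75109345-75109374, plus strand): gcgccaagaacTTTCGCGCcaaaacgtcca
Mcm7 (chr5:138172030-138172059, minus strand): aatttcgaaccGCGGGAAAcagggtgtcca
Cdc6 (chr11:98908002-98908031, plus strand): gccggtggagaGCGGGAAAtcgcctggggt
Orc1 (chr4:108579416-108579445, plus strand): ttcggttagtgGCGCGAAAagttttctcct
Cdt1 (chr8:122568035-122568064, plus strand): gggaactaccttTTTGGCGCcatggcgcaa
Gins3 (chr8:95633507-95633536, plus strand): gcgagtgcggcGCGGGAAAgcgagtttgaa
Rfc3 (chr5:151651200-151651229, minus strand): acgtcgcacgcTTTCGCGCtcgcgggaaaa
Pola1 (chrX:93632275-93632304, minus strand): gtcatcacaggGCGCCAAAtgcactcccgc
Uhrf1 (chr17:56304117-56304146, plus strand): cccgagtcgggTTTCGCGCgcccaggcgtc
E2f2 (chr4:136172294-136172323, plus strand): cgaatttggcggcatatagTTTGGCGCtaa
The promoter with the most matches among the MCM genes was that of Mcm6, the MCM gene with the most counts (a mean of 86.0 CPM over the 12 libraries). It is shown for the 250 bases before its start, with capitals for 3 E2F matches, of which 2 overlap in 1 run, and for 2 copies of ATTGG, which is CCAAT read on the other strand.
Mcm6 (chr1:128359706-128359955, minus strand): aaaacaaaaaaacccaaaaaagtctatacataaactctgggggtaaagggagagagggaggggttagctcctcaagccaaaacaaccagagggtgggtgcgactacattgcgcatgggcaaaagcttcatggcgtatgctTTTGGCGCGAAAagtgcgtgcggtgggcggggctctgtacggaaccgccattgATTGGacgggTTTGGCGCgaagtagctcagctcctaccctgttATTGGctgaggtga

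Levels between genes were compared as counts scaled for depth and for the merged length of all annotated exons of a gene (RPKM), averaged over all 12 libraries. Pcna, the sliding clamp, was the highest at 28.8 ± 3.46 RPKM (SD, n = 12). It was followed by 4 MCM subunits, Mcm6 at 18.4 ± 3.40, Mcm3 at 15.4 ± 1.93, Mcm7 at 14.97 ± 2.20 and Mcm5 at 14.9 ± 3.02, whose levels lie within each other's spread. Mcm4 was at 13.1 ± 2.12, while Mcm2, which takes part in the same ring of 6 different subunits, stood at 6.98 ± 0.845 RPKM. The place of Mcm2 rested on the length used: its merged exons cover 6956 bases and its longest transcript 3494, and its counts, a mean of 48.5 CPM, were close to the 47.0 CPM of Mcm4, whose merged exons and longest transcript both have 3589 bases. Scaled by the longest transcript, a choice made after seeing the data, Mcm2 had 13.9 ± 1.68 RPKM and Mcm4 13.1 ± 2.12. On that scale Pcna was again the highest, at 45.6 ± 5.47, followed by Mcm7 at 22.4 ± 3.28, Rpa3 at 20.9 ± 3.84 and Mcm6 at 19.7 ± 3.64. The median of the 43 genes by merged exons was 6.37 RPKM.

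By merged exons, levels within complexes were uneven. Of the GINS subunits, Gins4 had 13.2 ± 2.42 RPKM and Gins2 had 9.02 ± 0.929, against 3.35 ± 0.458 for Gins1 and 2.03 ± 0.395 for Gins3. Gins2 shares 67.3% of its exonic bases with Gse1 on the opposite strand, which averaged 864 counts a library, so its counts are uncertain. Of the large replication factor C subunit and its smaller partners, Rfc1 had 9.20 ± 0.792 RPKM and the other 4 lay between 5.25 and 7.20. Cdt1, the licensing factor, stood at 12.7 ± 2.25 RPKM, and its partner Cdc6, the ATPase that acts with it, at 2.00 ± 0.373. The lowest levels were those of Orc1, the ATPase subunit of the origin recognition complex, at 1.88 ± 0.368 RPKM, E2f2, an activating E2F, at 1.66 ± 0.271, and Ccne1, one of the cyclins E, at 1.19 ± 0.334. Those last 3 overlap each other, and Pcna did not overlap any other gene except Mcm6, whose highest library reached 24.5 RPKM against 24.2 for the lowest of Pcna.

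**Figure D1:**
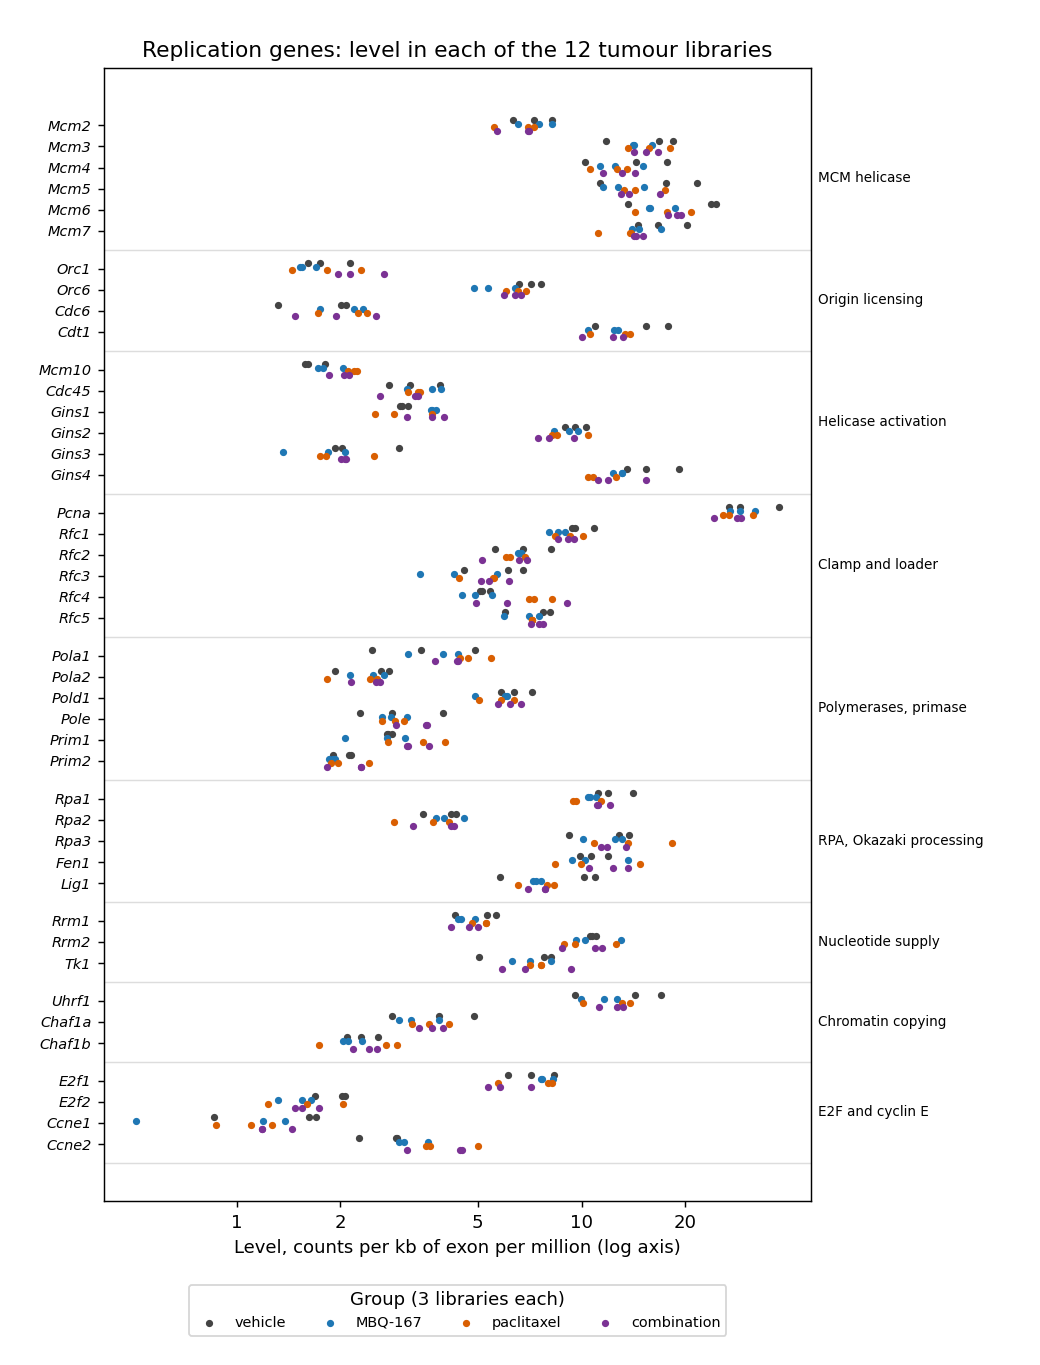
Level of each of the 43 replication genes in each of the 12 libraries, in RPKM on a log axis, coloured by group and ordered by role. Genes range from Ccne1 at a mean of 1.19 to Pcna at 28.8, and for most genes the 4 colours are intermingled.

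The genes varied little between tumours. The coefficient of variation of CPM, the count scaled to the library size by edgeR's TMM factors, over the 12 libraries had a median of 15.6% for the 43 genes, against 21.9% for all genes tested and 17.4% for the 11111 tested genes whose mean CPM fell in the members' range. The ratio of the highest to the lowest library was under 2 for 38 of the 43 genes, with Prim2, a primase subunit, the steadiest at 1.32 and Ccne1 the least steady at 3.31. The smallest count of any of these genes in a library was 19, in tables whose totals ran from 11540557 to 17001562 counts.

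Most of the spread among libraries lay inside groups. The mean log2 level of the 43 genes relative to their 12-library means was 0.12, -0.12 and 0.12 in vehicle libraries 1 to 3, -0.16, -0.04 and 0.03 under MBQ-167, -0.15, 0.10 and 0.05 under paclitaxel, and -0.02, 0.04 and 0.04 under the combination. Those groups all overlap, and the vehicle libraries span nearly the whole range. For the MCM subunits, the span among vehicle libraries was wider still, at 0.23, -0.27 and 0.37, and the 9 treated libraries lay between -0.28 and 0.14. The E2F and cyclin E genes had the reverse order in vehicle, at -0.01, 0.21 and -0.12. Without TMM scaling, the 43 genes took 0.122%, 0.104% and 0.137% of all counts in vehicle and 0.143%, 0.143% and 0.138% under paclitaxel. All 3 paclitaxel libraries lay above vehicle. The shares were 0.118%, 0.118% and 0.141% under MBQ-167 and 0.118%, 0.139% and 0.157% under the combination, which overlap vehicle. All counts include 3 genes that resemble ribosomal RNA, at 37.5%, 34.5% and 31.6% in vehicle and 17.1%, 32.1% and 27.9% under paclitaxel. The part of those 3 genes in these shares was not tested. The summed TMM-scaled level of the 43 genes was 1473, 1165 and 1516 CPM in vehicle and 1169, 1386 and 1336 under paclitaxel, which overlap.

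**Figure D2:**
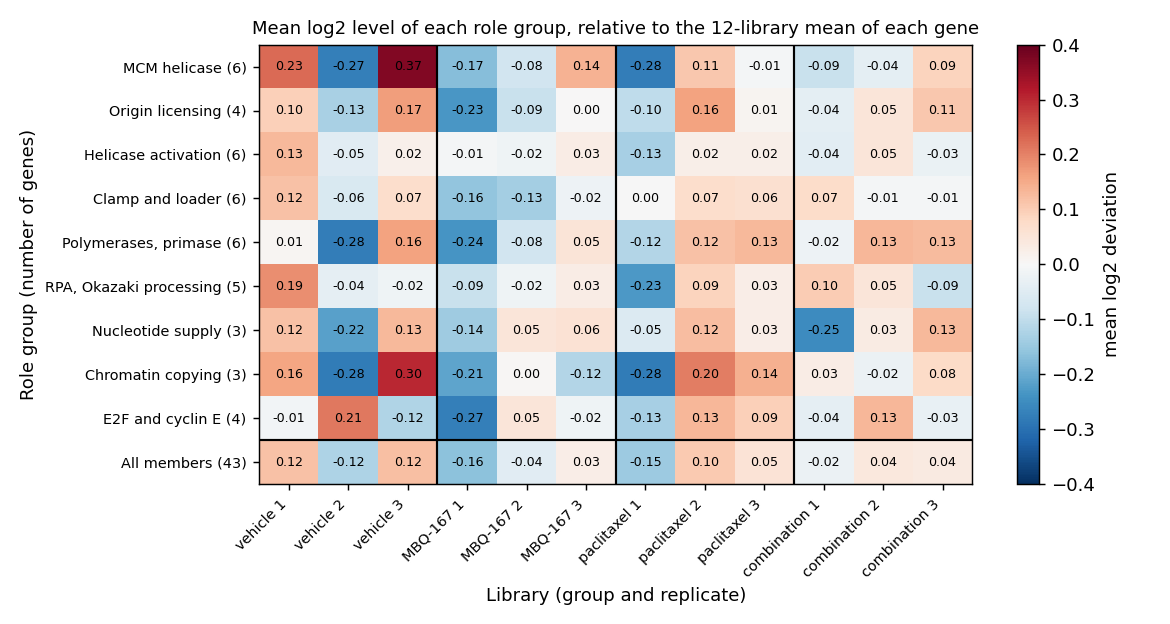
Mean log2 level of each role group in each library, relative to each gene's mean over the 12 libraries. Red is above and blue below that mean. The MCM genes run from -0.28 in paclitaxel 1 to 0.37 in vehicle 3, and vehicle 2 lies below vehicle 1 and vehicle 3 in each role group but the E2F and cyclin E genes.

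Other cell types and library properties also moved between these samples. Markers of epithelial cells, which are not specific to carcinoma, were present in all 12 libraries. Epcam was at 32.1 to 347 CPM, Cdh1 at 36.0 to 268, Krt8 at 277 to 694 and Krt18 at 383 to 1034. The milk genes Wap and Csn2 had 8 counts and 1 count over all libraries. The summed level of 12 epithelial markers was 2170, 1007 and 3116 CPM in vehicle 1 to 3, the same order as the MCM genes, and 1005 to 1802 in the treated libraries. The summed level of 15 neutrophil markers was 616, 479 and 1846 CPM in vehicle, 419 to 488 under MBQ-167, 308 to 409 under paclitaxel and 322 to 378 under the combination, and 0, 10 and 9 of the 14 tested fell against vehicle. Of 7 erythroid markers, whose sum was 258 to 265 CPM in vehicle and 14.5 to 108 in the treated libraries, 0, 3 and 3 of the 6 tested fell. Of all genes tested, 0.0767%, 2.49% and 0.811% fell. The 0 counts under MBQ-167 are by edgeR, where 11 neutrophil and 4 erythroid markers had an unadjusted p under 0.05, beside 12.9% of all genes. There DESeq2 passed S100a9 (adjusted p = 0.0392), Mmp8 (0.0494), Csf3r (0.0193) and the erythroid Hba-a1 (0.0284), and voom passed none of these. Of the 10 tested epithelial markers, 1 fell under paclitaxel by edgeR: Krt8, a keratin of simple epithelia, at -0.80 ± 0.18 on the log2 scale (adjusted p = 0.0236). Krt8 was lower in all 9 treated libraries than in vehicle. Its adjusted p under MBQ-167 and the combination was 0.14 and 0.0611 by edgeR and 0.00851 and 0.00833 by DESeq2. Krt18 was at -0.76, -0.76 and -0.73 under MBQ-167, paclitaxel and the combination, with libraries that overlapped vehicle. It passed by DESeq2 in each (adjusted p = 0.0493, 0.0157 and 0.0344) and by neither edgeR nor voom. Of the 13 tested T and NK cell markers, 1 rose, Klrd1, a receptor chain of NK cells, by 2.93 ± 0.61 under paclitaxel (edgeR adjusted p = 0.016) and 2.77 ± 0.61 under the combination (adjusted p = 0.0388). Of the 10 macrophage markers, 1 fell under paclitaxel, Cd14, at -0.94 ± 0.22 (edgeR adjusted p = 0.025). Under MBQ-167, Klrd1 and Cd14 passed by DESeq2 (adjusted p = 0.0245 and 0.025) and by neither edgeR nor voom. The edgeR calls of Krt8, Klrd1 and Cd14 did not hold with the correction for GC content, which is described with the plot of GC content. The edgeR adjusted p was then 0.0762 for Krt8, 0.0589 and 0.0945 for Klrd1 and 0.0623 for Cd14. Every neutrophil marker called under paclitaxel still passed with it (edgeR adjusted p of 0.0399 or less). Under the combination some did not, such as Csf3r (0.0632). Of the erythroid calls under paclitaxel, Hba-a1 (0.0477) and Hbb-bs (0.0495) still passed and Slc4a1 (0.063) did not. Those under the combination, Hba-a1, Hba-a2 and Hbb-bs, did not pass (0.0595, 0.0696 and 0.0729).

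Leaving out 1 library also ended the calls of Krt8, Cd14 and Klrd1. For Krt8 it was vehicle 1, vehicle 3 or any paclitaxel library (edgeR adjusted p = 0.0503 to 0.0859). For Cd14 it was vehicle 1, vehicle 2 or any paclitaxel library (0.0599 to 0.0971). For Klrd1 it was paclitaxel 2 under paclitaxel (0.0618), and vehicle 1 or any combination library under the combination (0.0789 to 0.105). A fit to the 2 groups alone ended the calls of Krt8 (edgeR adjusted p = 0.0926) and Klrd1 (0.0747 and 0.16). No B cell, fibroblast, endothelial, muscle or fat marker passed against vehicle by edgeR, DESeq2 or voom, with 1 muscle or fat marker at an unadjusted p under 0.05 by edgeR, under paclitaxel. The 3 genes Gm26917, Gm42418 and CT010467.1, whose annotated sequence resembles ribosomal RNA, took 31.6 to 37.5% of all counts in vehicle, 30.1 to 36.8% under MBQ-167, 17.1 to 32.1% under paclitaxel and 19.9 to 37.4% under the combination. The part of these cells and features in the results on replication genes was not tested.

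Against vehicle, MBQ-167 left 0 of 43 replication genes past the test, beside 0.0931% of all genes called (17 of 18252, of which 0.0164% higher and 0.0767% lower), a share under 1 gene in 43. DESeq2 and limma voom also called 0. By edgeR, 1 gene, Orc6, had an unadjusted p under 0.05, beside 12.9% of all genes. Fold changes were above 0 for 12 genes and below 0 for 31, in a range from -0.43 to 0.28 on the log2 scale, beside a median over all genes tested of 0.00. The libraries of the 2 groups did not overlap for 7 of the 43 genes, with Gins1 and Ccne2 higher and Orc6, Gins4, Rfc1, Rpa1 and E2f2 lower, beside 17.3% of all genes.

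Between paclitaxel and vehicle more genes were called, 5.66% of all genes (1033, of which 3.17% higher and 2.49% lower), and again 0 of the 43 replication genes passed. With the correction for GC content, described with the plot of GC content, the share of all genes called was 2.33%. DESeq2 and voom called 0 as well, and the smallest adjusted p was 0.0843 by edgeR, 0.0507 by DESeq2 and 0.0842 by voom. By edgeR, 6 of the 43 had an unadjusted p under 0.05, beside 22.6% of all genes: Ccne2, Mcm10 and Rfc4 were higher, and Gins4, Mcm7 and Rpa1 lower. The count depended on 1 control library: without vehicle 3, whose neutrophil markers stand apart, 2 genes passed, beside 6.09% of all genes, Pola1 at 0.72 (adjusted p = 0.0308) and Gins4 at -0.61 (adjusted p = 0.0498). Fold changes ranged from -0.50 to 0.60 and were above 0 for 16 genes. The groups did not overlap for 5 genes, beside 25.4% of all genes.

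The combination against vehicle had 1.84% of all genes called (336, of which 1.03% higher and 0.811% lower) and 0 of the 43, by edgeR, DESeq2 and voom alike. Ccne2 was the 1 gene with an unadjusted p under 0.05 by edgeR, beside 18.4% of all genes. Fold changes ranged from -0.33 to 0.58 and were above 0 for 16 genes. The 3 genes whose libraries did not overlap, Mcm10, Prim1 and Ccne2, were all higher, beside 20.9% of all genes in either direction. These 3 comparisons share the vehicle libraries, so their values for a gene are not independent of each other.

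The intervals were narrower than is usual in this table, which holds genes of all levels. Of the 18252 genes tested, 11111 had a mean CPM in the members' range, and intervals were not compared for those alone. The median standard error of the members' log2 fold change was 0.18 in each of these comparisons, against 0.23 for all genes tested. The share of all genes with a 95% interval within 2-fold was 63.5% in the MBQ-167 comparison, 60.1% under paclitaxel and 61.7% under the combination, beside the members' 42, 41 and 42 of 43. The exceptions were Ccne1 under MBQ-167, whose interval ran from -1.21 to 0.35, Ccne1 and Ccne2 under paclitaxel, and Ccne2 under the combination, whose interval was 0.16 to 1.00. Changes smaller than 2-fold lie within most of these intervals.

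**Figure D3:**
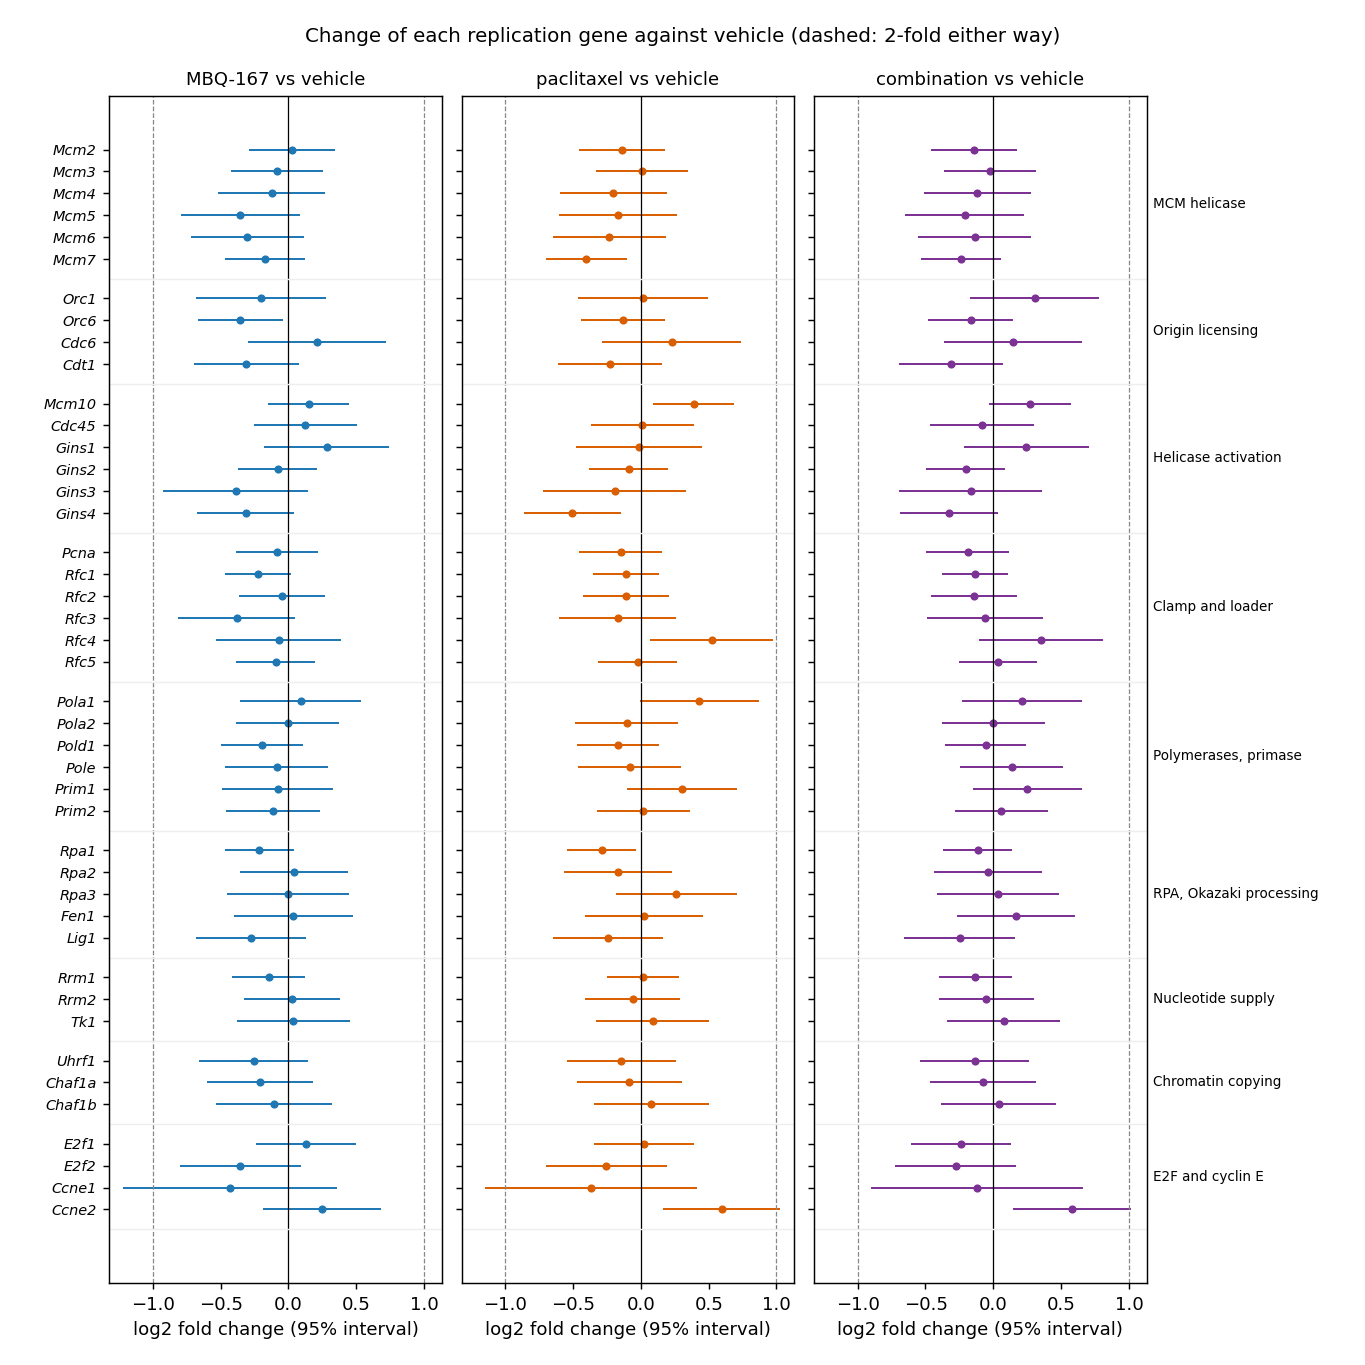
Log2 fold change of each replication gene against vehicle with its 95% interval, for MBQ-167, paclitaxel and the combination (3 libraries a group, shared vehicle libraries). Most points lie within 0.4 of 0, and only the intervals of Ccne1 and Ccne2 reach past the dashed lines that mark a 2-fold change.

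The genes given in full are placed by whole-gene coordinates on GRCm38 from GENCODE. Among the 6 MCM helicase subunits, Mcm7 (ENSMUSG00000029730, chr5:138164583-138172422, minus strand), which forms part of the hexameric ring, had the smallest p. Mcm7 measured 73.6, 64.7 and 89.4 CPM in the vehicle libraries, 61.8, 65.0 and 75.2 under MBQ-167, 49.5, 61.3 and 61.7 under paclitaxel, and 66.6, 62.8 and 63.6 under the combination. All 3 paclitaxel libraries were below all 3 vehicle libraries, and the other groups overlapped vehicle. The log2 fold change of Mcm7 under paclitaxel was -0.40 ± 0.14 (SE, 95% interval -0.69 to -0.11, edgeR adjusted p = 0.0937). The other 5 subunits had paclitaxel changes from -0.23 for Mcm6 to 0.01 for Mcm3. Mcm6 showed how wide the vehicle group was, at 114, 63.8 and 111 CPM, so that the 9 treated libraries, 66.6 to 96.9 CPM, all lay between the lowest and the highest vehicle library. In the combination all 6 subunits had values below 0, from -0.24 to -0.02, with no interval that left out 0.

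Of the licensing genes, Orc6 (ENSMUSG00000031697, chr8:85299632-85308278, plus strand), the smallest subunit of the origin recognition complex, had the smallest p, under MBQ-167. Its levels were 18.8, 16.2 and 17.6 CPM in vehicle, 13.3, 12.1 and 15.8 under MBQ-167, 16.2, 14.9 and 17.0 under paclitaxel and 16.5, 15.8 and 14.8 under the combination. The MBQ-167 libraries were all below vehicle, by a log2 fold change of -0.35 ± 0.14 (95% interval -0.66 to -0.05, edgeR adjusted p = 0.317). Orc6 shares 6.93% of its exonic bases with Vps35 on the opposite strand, and whether the counting used strand is not given in the sources used here. Cdt1 was at -0.31 ± 0.18 under MBQ-167 and -0.31 ± 0.18 under the combination, and its interval held 0 in both. Cdc6 had values above 0 in all 3 comparisons, 0.21, 0.23 and 0.15, each smaller than its SE of 0.24. Orc1 was at -0.20, 0.02 and 0.30.

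The helicase activation genes gave the largest single difference in the lower direction. Gins4 (ENSMUSG00000031546, chr8:23226616-23237659, minus strand), a subunit of GINS, measured 25.8, 20.7 and 18.3 CPM in vehicle, 17.6, 16.7 and 17.7 under MBQ-167, 14.1, 17.0 and 14.6 under paclitaxel, and 20.7, 16.1 and 15.1 under the combination. The MBQ-167 and paclitaxel libraries all lay below vehicle, and the combination overlapped it. Its log2 fold change was -0.50 ± 0.16 under paclitaxel (95% interval -0.86 to -0.15, edgeR adjusted p = 0.0843), -0.32 ± 0.16 under MBQ-167 and -0.33 ± 0.16 under the combination. Another member of the group differed in the opposite direction: Mcm10 (ENSMUSG00000026669, chr2:4989714-5012791, minus strand), which links the helicase to polymerase alpha, measured 13.8, 12.2 and 12.4 CPM in vehicle and 16.8, 17.2 and 16.2 under paclitaxel. Under the combination Mcm10 was at 16.3, 15.8 and 14.2 CPM, also above all vehicle libraries, and under MBQ-167 at 13.7, 15.7 and 13.2, which overlapped vehicle. The log2 fold change of Mcm10 was 0.39 ± 0.14 under paclitaxel (edgeR adjusted p = 0.106) and 0.27 ± 0.14 under the combination (adjusted p = 0.315). The other 3 GINS genes and Cdc45 had paclitaxel values from -0.19 to 0.01.

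For the clamp and its loader, Pcna was level, with 89.7, 64.3 and 69.1 CPM in vehicle and 58.1 to 76.3 CPM in the 9 treated libraries. Its log2 fold changes of -0.08, -0.15 and -0.19 had an SE of 0.14 each. Rfc4 (ENSMUSG00000022881, chr16:23113943-23127737, minus strand), one of the 4 small loader subunits, was the exception in its group. It measured 7.78, 7.91 and 8.31 CPM in vehicle, 8.45, 7.51 and 6.88 under MBQ-167, 11.1, 12.6 and 10.8 under paclitaxel, and 13.9, 7.56 and 9.33 under the combination. The paclitaxel libraries were all above vehicle, while 1 of the combination libraries was the highest of all and another lay below vehicle. The log2 fold change of Rfc4 was 0.52 ± 0.21 under paclitaxel (95% interval 0.07 to 0.97, edgeR adjusted p = 0.156). Rfc4 shares 12.7% of its exonic bases with Eif4a2 on the opposite strand, which averaged 2716 counts a library. The other 4 loader genes had paclitaxel values between -0.17 and -0.02.

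Pola1 (ENSMUSG00000006678, chrX:93304767-93632155, minus strand), the catalytic subunit of polymerase alpha, had the smallest p of the polymerases and primases. It measured 30.2, 21.7 and 43.2 CPM in vehicle, 27.7, 34.9 and 38.7 under MBQ-167, 39.2, 41.2 and 48.2 under paclitaxel, and 33.2, 38.6 and 38.5 under the combination. The vehicle libraries differed by close to 2-fold among themselves and overlapped every group. The log2 fold change of Pola1 was 0.43 ± 0.20 under paclitaxel (edgeR adjusted p = 0.223), and the gene passed only when vehicle 3, its highest vehicle library, was left out. Prim1, the catalytic primase subunit, was at 0.30 ± 0.19 under paclitaxel and 0.25 ± 0.19 under the combination. Pold1 and Pole, the catalytic subunits of the replicative polymerases delta and epsilon, were at -0.17 ± 0.14 and -0.08 ± 0.17 under paclitaxel. Pola2 and Prim2, the partners of the catalytic subunits, lay between -0.12 and 0.06 in all 3 comparisons.

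Rpa1 (ENSMUSG00000000751, chr11:75298166-75348324, minus strand), the largest subunit of the single-strand binding protein RPA, measured 78.5, 66.7 and 62.3 CPM in vehicle, 58.3, 59.1 and 61.4 under MBQ-167, 53.7, 63.5 and 52.7 under paclitaxel and 67.6, 62.2 and 62.0 under the combination. The MBQ-167 libraries were all below vehicle, by a small margin, and the other groups overlapped it. Its log2 fold change was -0.29 ± 0.12 under paclitaxel (edgeR adjusted p = 0.153) and -0.21 ± 0.12 under MBQ-167 (adjusted p = 0.459). Rpa2 and Rpa3, the smaller RPA subunits, were at -0.17 ± 0.18 and 0.26 ± 0.21 under paclitaxel. Fen1, which trims the flaps of Okazaki fragments, was at 0.02 ± 0.20, and Lig1, the ligase that joins the fragments, at -0.24 ± 0.19. Fen1 shares 78.8% of its exonic bases with a gene on the opposite strand, so its counts are uncertain.

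The genes that supply deoxynucleotides had values near 0. Rrm1 (ENSMUSG00000030978, chr7:102441695-102469771, plus strand), the large subunit of ribonucleotide reductase, measured 62.2, 47.2 and 58.5 CPM in vehicle, 49.4, 48.2 and 54.2 under MBQ-167, 53.1, 58.3 and 58.4 under paclitaxel and 46.1, 55.1 and 51.8 under the combination. All groups overlapped vehicle, and the log2 fold change of Rrm1 under MBQ-167 was -0.15 ± 0.12 (edgeR adjusted p = 0.665). Rrm2, the small subunit that limits the enzyme in S phase, had values of 0.03, -0.06 and -0.05 with an SE of 0.16. Tk1, the thymidine kinase of S phase, had values of 0.04, 0.09 and 0.08 with an SE of 0.19.

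Of the genes that copy chromatin, Uhrf1 (ENSMUSG00000001228, chr17:56303321-56323486, plus strand), which guides DNA methylation to newly made strands, measured 60.8, 40.6 and 72.5 CPM in vehicle, 42.5, 53.9 and 49.5 under MBQ-167, 43.1, 59.0 and 55.7 under paclitaxel and 47.9, 56.1 and 54.1 under the combination. All 9 treated libraries lay inside the vehicle range. The log2 fold change of Uhrf1 under MBQ-167 was -0.26 ± 0.18 (edgeR adjusted p = 0.598). Chaf1a and Chaf1b, subunits of the assembly factor that puts histones on new DNA, lay between -0.21 and 0.08 in the 3 comparisons. Chaf1a shares 52.5% of its exonic bases with Ubxn6 on the opposite strand, so its counts are uncertain.

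Ccne2 (ENSMUSG00000028212, chr4:11191351-11204779, plus strand), the other cyclin E, had the largest fold changes of the 43 genes under paclitaxel and the combination. It measured 7.94, 10.1 and 10.2 CPM in vehicle, 12.5, 10.3 and 10.7 under MBQ-167, 17.5, 12.7 and 12.4 under paclitaxel, and 10.9, 15.7 and 15.5 under the combination. All 9 treated libraries were above all 3 vehicle libraries. The log2 fold change of Ccne2 was 0.25 ± 0.20 under MBQ-167 (edgeR adjusted p = 0.645), 0.60 ± 0.20 under paclitaxel (adjusted p = 0.0897) and 0.58 ± 0.20 under the combination (adjusted p = 0.138). With a correction for GC content, which is described with the plot of GC content, the direction of Ccne2 turned in all 3 comparisons, to -0.09, -0.11 and -0.03. Ccne2 also shares 17.4% of its exonic bases with Ints8 on the opposite strand. Its paralog Ccne1 was at -0.43 ± 0.36, -0.37 ± 0.36 and -0.12 ± 0.36. E2f1 and E2f2, the activating E2F factors, were at 0.13 and -0.36 under MBQ-167, 0.02 and -0.25 under paclitaxel, and -0.24 and -0.28 under the combination, each with an SE of 0.17 to 0.21.

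**Figure D4:**
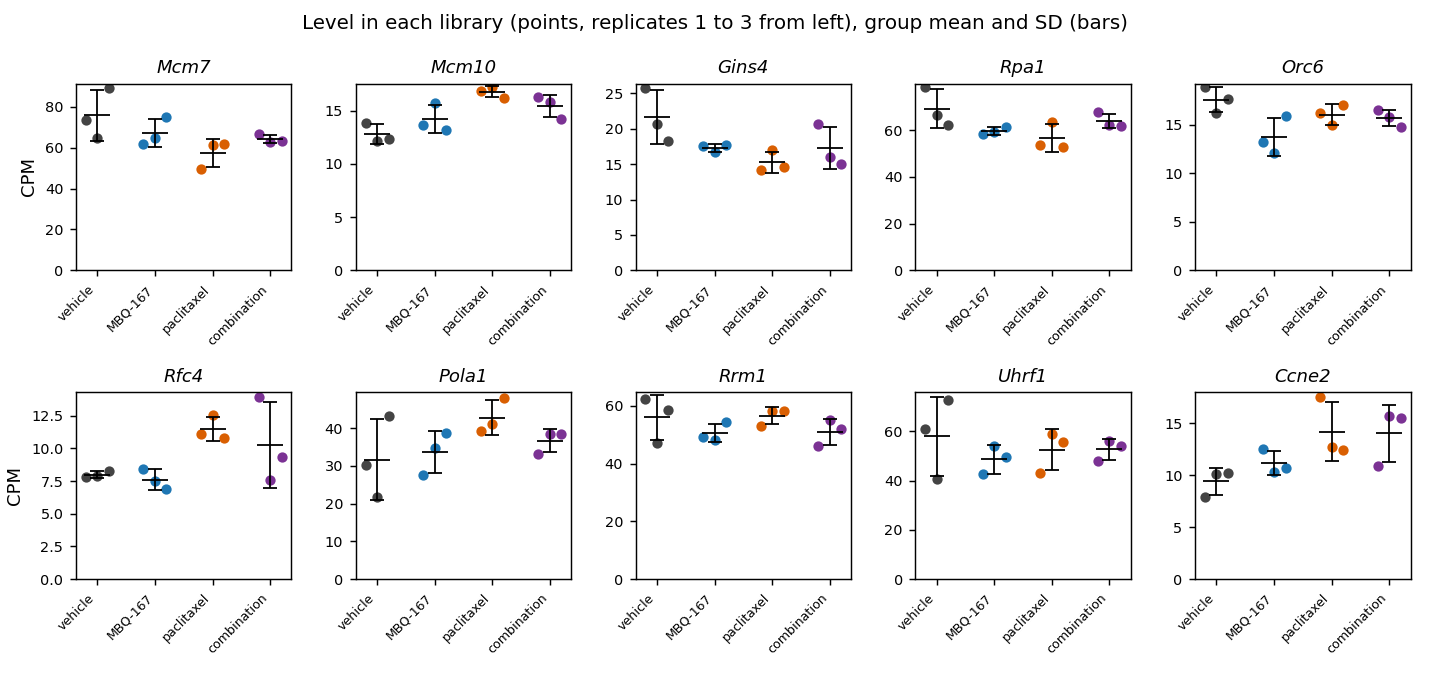
CPM of 10 replication genes in each library (points), with the mean and SD of each group of 3 (bars), on axes that start at 0. Mcm7 and Gins4 lie lower and Mcm10, Rfc4 and Ccne2 higher in every paclitaxel library than in every vehicle library, and Rpa1, Rrm1, Uhrf1 and Pola1 overlap between these groups.

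The combination was also set against each single drug. Against MBQ-167, 0 of 43 genes passed, beside 0% of all genes, by edgeR; DESeq2 and voom also called 0 of the 43. By edgeR, 2 genes had an unadjusted p under 0.05, beside 5.15% of all genes: Orc1 at 0.51 ± 0.22 and E2f1 at -0.37 ± 0.17, both with an adjusted p of 0.937. Orc1 was at 7.44, 9.29 and 6.85 CPM under the combination and 5.37, 5.92 and 5.30 under MBQ-167, and E2f1 was at 22.5, 18.3 and 16.9 against 26.1, 24.3 and 24.0. Neither pair of groups overlapped, and the groups did not overlap for 4 of the 43 genes in all, beside 12.5% of all genes. Against paclitaxel, 0 of 43 passed, beside 0% of all genes, by edgeR, with 0 at an unadjusted p under 0.05, beside 2.36% of all genes, and 0 by DESeq2 and voom, and the median of the 43 was -0.01. The groups did not overlap for 2 of the 43, beside 7.28% of all genes. The interval lay within 2-fold for 42 of 43 genes in each of these comparisons, Ccne1 being the exception, beside 67.2% and 68.5% of all genes.

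The interaction, which is the combination minus both single drugs plus vehicle and is 0 where log2 effects add, passed for 0 of 43 genes, beside 0.0603% of all genes (11, of which 0.0438% higher and 0.0164% lower), and for 0 by DESeq2 and voom. By edgeR, Rpa1 was the 1 gene with an unadjusted p under 0.05, beside 9.83% of all genes, at 0.39 ± 0.16 (95% interval 0.04 to 0.74, edgeR adjusted p = 0.459). Gins4 was at 0.49 ± 0.23 and Mcm6 at 0.40 ± 0.27. The median of the 43 interaction values was 0.11, and 29 were above 0. Without paclitaxel 1 the median was -0.01. The interval was within 2-fold for 38 of 43 genes, the exceptions being Orc1, Cdc6, Gins3, Rfc3 and Ccne1, beside 48.1% of all genes.

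Fold changes against vehicle moved with the GC content of the transcripts, among the replication genes and in the whole table. Over all genes, each library's levels relative to the other libraries followed GC content with a Spearman's rho of 0.15 to 0.30 in vehicle, 0.03 to 0.18 under MBQ-167, -0.33 to -0.16 under paclitaxel and -0.23 to -0.04 under the combination. Across the 43 genes, Spearman's rho between log2 fold change and GC content was -0.18 under MBQ-167, -0.41 under paclitaxel and -0.47 under the combination, against -0.20, -0.40 and -0.34 over 18144 genes. With an offset fitted to GC content in each library, rho was 0.16, 0.30 and 0.16 across the 43 genes, opposite in sign, and at most 0.014 over all genes. These are descriptions across genes that share the same libraries, with no test. The members' median GC content, 49.3%, was close to the 49.4% of all genes tested.

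Ccne2, with 36.3% GC, sits where the median paclitaxel change of all genes was highest, at 0.49 in the lowest of 10 equal bins of GC content. With the offset, the paclitaxel log2 fold change of Ccne2 was -0.11, that of Pola1 0.10 and that of Rfc4 0.29. That of Mcm10 was 0.38, of Gins4 -0.46 and of Mcm7 -0.31, close to their values without it. Rpa3, with the lowest GC content of the members, turned from 0.26 to -0.64. The sign of the change against vehicle turned for 3, 7 and 8 of the 43 genes under MBQ-167, paclitaxel and the combination. Against vehicle, 0 of the 43 passed with the offset by edgeR, beside 0.0882%, 2.33% and 0.413% of all genes. At an unadjusted p under 0.05 there were 3, 6 and 2 of the 43, beside 12.9%, 18% and 15.5% of all genes.

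**Figure D5:**
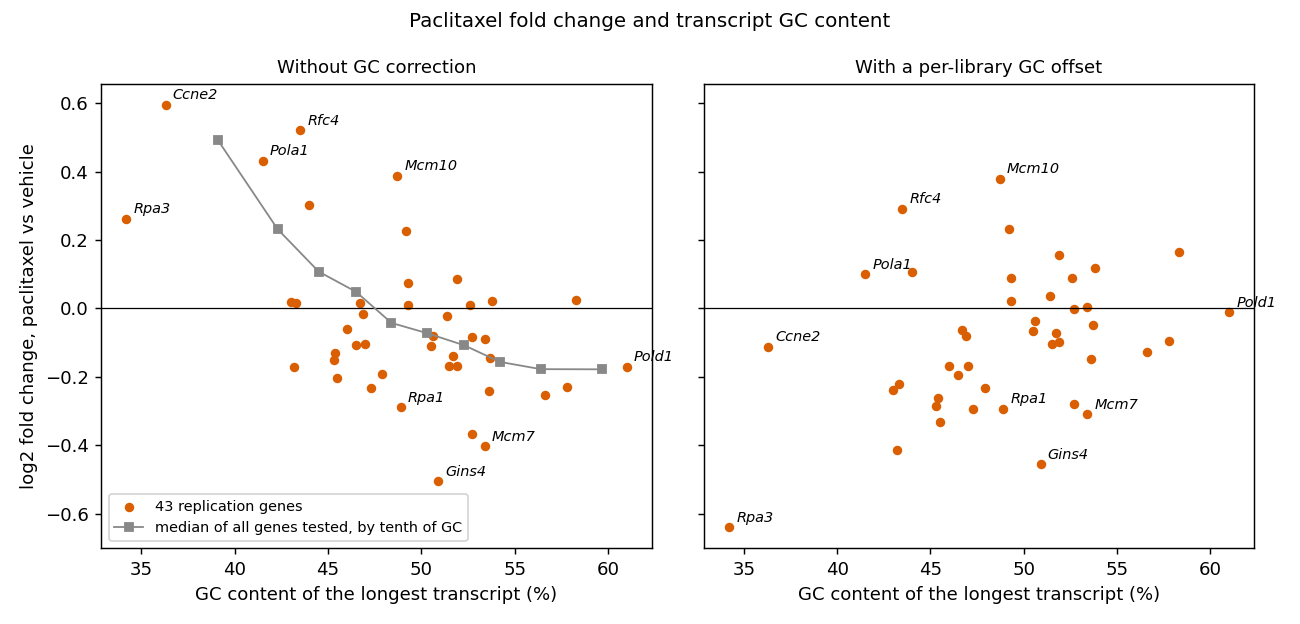
Paclitaxel log2 fold change of the 43 replication genes against the GC content of the longest transcript, without correction (left, with the median of all genes in 10 bins of GC content as squares) and with a GC offset in each library (right). The all-gene median falls from 0.49 to -0.18 across the bins, and Ccne2 moves from 0.60 to -0.11.

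The genes with E2F letters in their promoter window had a median log2 fold change of -0.27 under MBQ-167, -0.17 under paclitaxel and -0.14 under the combination (n = 14). The 21 genes with a window and no such letters had -0.07, -0.02 and -0.05. Both sets span 0 in all 3 comparisons, from -0.39 to 0.21 for the first and -0.43 to 0.15 for the second under MBQ-167. This is a description of 2 small sets of genes measured in the same libraries, with no test.

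Other genes of the same pathways gave a small number of calls. Of 29 further replication genes, 3 rose under paclitaxel and 0 fell, beside 3.17% and 2.49% of all genes, with a median of 0.15. They were Orc4 at 0.77 ± 0.12 (edgeR adjusted p = 0.00488), Atad5 at 0.68 ± 0.13 (adjusted p = 0.013) and Orc3 at 0.50 ± 0.13 (adjusted p = 0.0405). Orc3 and Orc4 are core subunits of the origin recognition complex, the complex of the members Orc1 and Orc6, and Atad5 takes PCNA off DNA after replication. Orc4 measured 32.0, 33.5 and 40.4 CPM in vehicle, 39.9, 46.1 and 44.9 under MBQ-167, 62.2, 60.1 and 58.2 under paclitaxel and 51.4, 61.5 and 58.7 under the combination. The paclitaxel and combination libraries all lay above vehicle. Orc4 also rose under the combination, by 0.70 ± 0.12 (edgeR adjusted p = 0.02), the 1 call of the 29 genes there, beside 1.84% of all genes.

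The 3 transcripts have 36.8% (Orc4), 41.8% (Atad5) and 38.6% (Orc3) GC. With the GC offset the paclitaxel values were 0.10 for Orc4, 0.36 for Atad5 and -0.04 for Orc3, and none passed, nor did Orc4 in the combination at 0.12. Leaving out 1 library ended the call of Orc3 whichever of the 6 it was, that of Atad5 for vehicle 1 or paclitaxel 2, and that of Orc4 in the combination for vehicle 1, combination 2 or combination 3. The adjusted p was then 0.0514 to 0.168 for Orc3, 0.052 and 0.0528 for Atad5, and 0.0552 to 0.0667 for Orc4. A fit to the 2 groups alone also ended the calls of Orc3 (adjusted p = 0.109) and of Orc4 in the combination (0.128). Under paclitaxel, Orc4 passed without any 1 library.

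Of 25 tested genes of the E2F, retinoblastoma and CDK network, 0 rose and 1 fell under paclitaxel, beside 3.17% and 2.49% of all genes. The 1 was Cdkn1a, which encodes the CDK inhibitor p21, at -0.52 ± 0.14 (edgeR adjusted p = 0.0413). Cdkn1a measured 33.9, 37.2 and 31.5 CPM in vehicle, 23.5, 21.4 and 26.4 under paclitaxel, 23.1, 23.0 and 25.6 under MBQ-167 and 22.6, 30.4 and 24.6 under the combination, all below vehicle. It did not pass with the GC offset (-0.42, adjusted p = 0.136), in a fit to the 2 groups alone (0.0961), or without vehicle 1, vehicle 2, paclitaxel 1 or paclitaxel 2 (0.10 to 0.155). Of 21 mitosis genes, 2 rose under paclitaxel and 0 fell, beside 3.17% and 2.49% of all genes, with a median of 0.02. They were Top2a, the topoisomerase that untangles sister chromatids, at 0.50 ± 0.12 (edgeR adjusted p = 0.0244), and Kif11, the spindle motor, at 0.55 ± 0.14 (adjusted p = 0.0383). Top2a was at 285 ± 28.7 CPM in vehicle and 404 ± 30.6 under paclitaxel, with no overlap. Neither passed with the GC offset (0.26 and 0.25), in the fit to the 2 groups alone (adjusted p = 0.0928 and 0.111), or without vehicle 1, vehicle 2, paclitaxel 1 or paclitaxel 2, and Kif11 also failed without paclitaxel 3 (adjusted p = 0.0602 to 0.101 for Top2a and 0.0599 to 0.141 for Kif11).

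Of 11 further genes of nucleotide supply and 10 of chromatin copying, 0 passed in any comparison by edgeR, DESeq2 or voom. At an unadjusted p under 0.05 by edgeR there were 3 and 2 under paclitaxel, 0 and 1 under MBQ-167 and 0 and 1 under the combination. Of all genes, 22.6%, 12.9% and 18.4% had such a p in these comparisons. The 29 further replication genes, the 25 network genes and the 21 mitosis genes had 0 calls under MBQ-167 by edgeR, beside 0.0931% of all genes. At an unadjusted p under 0.05 there were 1, 5 and 2 of them, beside 12.9% of all genes. Of these lists, DESeq2 called 0, 1 and 0 under MBQ-167, and voom called 0 of each.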

How the data were processed

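RNA of 12 tumours or tumour extracts, 3 libraries in each of 4 groups, was sequenced as polyA RNA. The authors deposited whole-number counts of reads for each gene, made with HISAT2 on GRCm38 and HTSeq, with DESeq2 for their own tests, per the submitters' processing notes. For versions, annotation and strandedness, each was not given in the sources used here. Genes of the GENCODE vM21 annotation of GRCm38 gave symbols, exon lengths and transcript GC content.

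Genes were kept with filterByExpr of edgeR 4.0.16 (minimum count 10), scaled by TMM and fitted to all 12 libraries with glmQLFit and glmQLFTest in R 4.3.3, with 8 residual degrees of freedom. P-values were adjusted by Benjamini-Hochberg over the 18252 genes of each of 6 comparisons, with a threshold of 0.05. Each SE was taken from the fold change and its F statistic. Alternatives were DESeq2 1.42.0, voom of limma 3.58.1, RLE scaling, 2 other filters, a replicate block, a GC offset (natural spline, 5 df), gene subsets, a fit to only the groups compared and leaving out 1 library at a time. Scaling levels by the longest transcript was added after seeing the data. The scripts were tested on simulated data. No pair of libraries in a group agreed within counting noise. Correlations between libraries did not show that the replicate numbers pair the samples, and could not exclude it.

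The members and the other lists were chosen with earlier results of these data known. Of each role group, the member with the smallest p against vehicle is given in full, with up to 3 genes by p of each other list, and further members by their values. Depth was 11540557 to 17001562 counts a library. Each group has 3 libraries, and an exact test of 3 against 3 cannot go below 0.1.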

Additional observations from a re-analysis of the deposited data

How the results depend on the processing

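The count of the 43 genes that passed stayed at 0 in every comparison under every alternative run (17 per comparison of 2 groups, 22 for the interaction), except for paclitaxel against vehicle, where leaving out 1 library gave 0 to 2, the 2 without vehicle replicate 3 (Pola1 and Gins4). The median log2 fold change of the 43 genes over the libraries left out ran from -0.18 to -0.06 for MBQ-167, -0.16 to -0.02 for paclitaxel, -0.13 to 0.01 for the combination against vehicle, 0.02 to 0.12 and -0.07 to 0.07 for the combination against MBQ-167 and paclitaxel, and -0.0056 (without paclitaxel 1) to 0.22 for the interaction. Among the genes given in full and the called genes of the other lists, the direction reversed as follows, and the cause was not tested. With the GC offset the values were -0.064 and -0.066 for Pola1 (MBQ-167, combination), -0.094, -0.11 and -0.028 for Ccne2 (MBQ-167, paclitaxel, combination), and -0.22 for Rrm1 and -0.038 for Orc3 (paclitaxel). With the GC offset and the replicate block they were -0.044 and -0.036 for Pola1, -0.10, -0.12 and -0.021 for Ccne2, -0.22 for Rrm1 and -0.041 for Orc3. Leaving out 1 library moved Pola1 under MBQ-167 from -0.12 (without vehicle 2) to 0.38 (without vehicle 3), with -0.02 without MBQ-167 replicate 3. It moved Rrm1 under paclitaxel from -0.096 (without vehicle 2) to 0.091, with -0.0074 without paclitaxel 2 and -0.012 without paclitaxel 3. It moved Uhrf1 from -0.35 to 0.048 under paclitaxel and from -0.34 to 0.054 under the combination, the higher value without vehicle 3 in both. The replicate block alone called 0 of the 43 genes in each comparison, with medians of -0.10, -0.09 and -0.07 against vehicle, and ended the call of Cdkn1a (adjusted p = 0.0503). Of 18 pairs of libraries with the same number, 6 had correlated deviations over 0.1 (r from -0.175 to 0.252). The median r was 0.0173 for these pairs and -0.0363 for pairs with other numbers. Of 12 libraries, 5 correlated best with one of their own number.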

Other observations

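The replication-dependent histone genes, which are transcribed in S phase to package new DNA, were looked at after their values were seen. Of 57 tested, 0 rose and 1 fell under paclitaxel, beside 3.17% and 2.49% of all genes. The 1 was Hist1h2al at -0.78 ± 0.20 (edgeR adjusted p = 0.0361). DESeq2 called 2 and voom 1 of the 57 under paclitaxel. By edgeR, 7 had an unadjusted p under 0.05 there, beside 22.6% of all genes. Under MBQ-167 and the combination 0 passed by edgeR, beside 0.0931% and 1.84% of all genes. At an unadjusted p under 0.05 by edgeR there were 8 and 3, beside 12.9% and 18.4% of all genes. In these 2 comparisons DESeq2 called 1 and 0, and voom 0 and 0. The median log2 fold changes were -0.21, -0.23 and -0.19 for MBQ-167, paclitaxel and the combination, and values were below 0 for 47, 45 and 46 of the 57 genes. With the GC offset the medians were -0.18, -0.09 and -0.15. Their summed level was 2484, 1820 and 1735 CPM in vehicle, 1652, 1396 and 1642 under MBQ-167, 1337, 1596 and 1836 under paclitaxel and 1734, 1658 and 1592 under the combination. Every MBQ-167 library was below every vehicle library, and paclitaxel overlapped vehicle. The combination libraries were also below, but the highest, at 1734 CPM, all but equalled the lowest vehicle library, at 1735 CPM. Among all single genes tested, the groups did not overlap for 17.3% under MBQ-167 and 20.9% under the combination. The linker histone Hist1h1c was at -0.71 ± 0.18 under MBQ-167 (edgeR adjusted p = 0.143) and -0.63 ± 0.18 under paclitaxel (adjusted p = 0.0567), and its interaction value was 0.98 ± 0.26 (adjusted p = 0.226). Many of these genes are near-identical copies, and most of their mRNAs lack a polyA tail, so their counts in polyA libraries are uncertain.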
